A study of Rattus norvegicus with 16 samples.

Results

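The genes described here encode the contractile lattice of skeletal muscle and the membrane junction that switches it on: parts of the thin and thick filaments, the Z-disc, the M-band and the triad, together with muscle creatine kinases, myoglobin, assembly chaperones and the 2 muscle ubiquitin ligases of atrophy. The list names 35 genes, chosen by symbol as parts that fast and slow fibres share, out of 23285 genes in the deposited count table. Of these, 32 were found there by symbol, and Ttn, Tcap and Lmod2 are not analysed here. RNA had been sequenced from 4 tendons of Sprague Dawley rats, the Achilles and patellar tendons of the hindlimb, the supraspinatus tendon of the shoulder and the flexor tendons of the forepaw, with 4 libraries of total RNA each and the aim of comparing every tendon with every other. The labels name no treatment or genotype, and they give neither age nor sex nor how far muscle was trimmed from each tendon. The titles number rats 1 to 4 in each tendon but do not say whether a number is the same rat in every tendon, and nothing else is given of the animals, so that p-values measure only the spread between these samples.

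In a muscle fibre, actin thin filaments are anchored at the Z-disc and myosin thick filaments at the M-band, and sliding of the filaments past each other shortens the sarcomere. At the triad, a calcium channel of the transverse tubule that senses voltage opens the ryanodine receptor of the sarcoplasmic reticulum, and calcium released from calsequestrin stores starts contraction. Tendon cells have no sarcomeres, but a tendon ends at its muscle, where fibres interlock with the collagen of the tendon. In bulk RNA, fewer fibres in a sample and less RNA of a gene in each fibre cannot be told apart.

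Sarcomere and triad transcripts were most abundant in the supraspinatus tendon, intermediate in the flexor tendons and lowest in the Achilles and patellar tendons. The summed level of the 32 genes, as a share of the library total after TMM scaling (a scaling to the bulk of genes that library composition affects less than the plain total), was 11.1, 8.48, 9.43 and 16.6% in supraspinatus libraries 1 to 4. In the flexor libraries the share was 3.74, 2.21, 1.06 and 2.75%, in the Achilles libraries 0.0566, 0.942, 0.212 and 0.896%, and in the patellar libraries 1.76, 0.0957, 0.0403 and 0.241%. Every supraspinatus library lay above every other library, and every flexor library lay above every Achilles library, whereas patellar 1 fell within the flexor range and the Achilles and patellar ranges overlapped. As shares of the plain library totals, the values were 7.26 to 12.1% in supraspinatus and 1.07 to 3.90% in flexor. They were 0.0623 to 0.982% in Achilles and 0.0430 to 1.98% in patellar tendon.

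**Figure D1:**
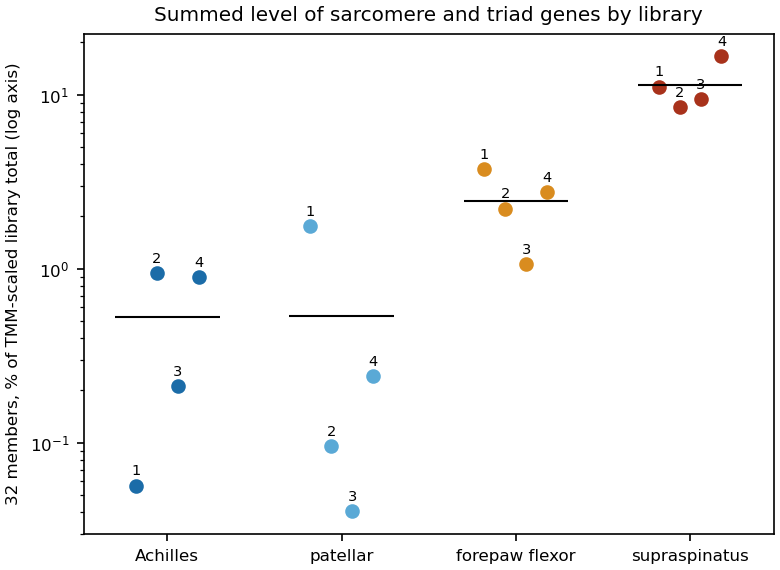
Summed level of the 32 measured sarcomere and triad genes in each of the 16 libraries, in percent of the TMM-scaled library total on a log axis. Points are libraries with their numbers and bars are means of 4, which fall from 11.4% in supraspinatus to 0.527% in Achilles and 0.535% in patellar tendon, where patellar 1 stands at 1.76%.

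The supraspinatus mean of 11.4 ± 3.63% (SD, n = 4) was 21.7 times that of Achilles tendon (0.527 ± 0.458%) and 21.3 times that of patellar tendon (0.535 ± 0.822%). It was 4.67 times that of the flexor tendons (2.44 ± 1.12%), and the flexor mean was 4.64 times that of Achilles tendon. Each of these 4 differences had p = 0.0286 in an exact two-sided permutation test over libraries, the smallest p that 4 against 4 allows, and 0.0429 adjusted over the 6 pairs. Flexor against patellar tendon (ratio 4.56) had an exact p of 0.0571 and an adjusted p of 0.0685. Achilles and patellar tendon (ratio 0.985) had an exact p of 0.943.

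Taken gene by gene, the order was much the same for all but a few. Of the 32 genes, Myot, which encodes the Z-disc protein myotilin, had 0 to 4 counts per library (0, 1, 3 and 0 in Achilles, 0, 1, 0 and 0 in flexor, 4, 1, 0 and 2 in supraspinatus, and 0 in all 4 patellar libraries) and did not pass the filter on low counts. The other 31 had at least 26 counts in every library, the lowest being Klhl40 in patellar 3, so none passed that filter through 1 tendon alone. Mean levels fell in the order supraspinatus, flexor, Achilles and patellar tendon for 16 of these genes, and in the order supraspinatus, flexor, patellar and Achilles tendon for 13. Mybpc2 and Myom2 had more in patellar than in flexor tendon on average, through patellar 1 alone. The library with the most was supraspinatus 4 for 28 genes, and the one with the least was patellar 3 for 17 and Achilles 1 for 12.

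All 31 genes were called different among the tendons by edgeR's quasi-likelihood test, at a Benjamini-Hochberg adjusted p under 0.05 over the 16948 genes tested, beside 75.6% of all genes. Supraspinatus was higher than Achilles tendon for 31 of 31 (24.7% of all genes were called in that direction and 25.4% in the other), with a median log2 fold change of 4.35 where the median of all genes was -0.05. Against patellar tendon it was again higher for 31 of 31 (27.5% of all genes, and 28.8% the other way), with a median of 4.47. The folds ran from 2.03 (Fbxo32) to 9.09 (Mybpc2) against Achilles tendon and from 1.86 (Fbxo32) to 7.13 (Mb) against patellar tendon. Levels in supraspinatus did not overlap those of Achilles tendon in any of the 31 (22.6% of all genes lay that way), nor those of patellar tendon (25%). The scaling bears on these sizes. TMM factors were 0.731 to 0.876 in supraspinatus and 1.01 to 1.16 in the other tendons, and on plain library totals the median fold of all genes shifted by -0.41 for supraspinatus against each hindlimb tendon and by -0.34 against flexor.

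Against the flexor tendons, supraspinatus was higher by a median log2 fold change of 2.21, and its 4 libraries lay above all 4 flexor libraries for 28 of 31 genes (24.4% of all genes lay that way). The exceptions were the junctophilin genes Jph1 and Jph2 and the ligase gene Fbxo32. Yet 8 of 31 passed the test, beside 24.3% of all genes in that direction (23.4% in the other, with none of the 31): Mybpc2, Ldb3, Des, Xirp2, Myom2, Cryab, Hrc and Fbxo32. Flexor tendons were higher than Achilles tendon for 15 of 31 genes (24.1% of all genes) and higher than patellar tendon for 17 (25.8%). None was lower in flexor, beside 23.5% of all genes against Achilles and 24.7% against patellar tendon. Their libraries lay wholly above Achilles tendon for 23 genes (23.7% of all genes) and wholly above patellar tendon for 9 (24.7%). Between Achilles and patellar tendon, Cryab was called higher in Achilles (1 of 31, beside 3.1% of all genes) and Mybpc2 higher in patellar tendon (1 of 31, beside 2.06%). The median fold there was 0.16, with 16 genes on one side and 15 on the other.

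Some libraries stood apart. Achilles 1 was the lowest Achilles library for 28 genes, and patellar 1 the highest patellar library for 29. Achilles 1 also held the most nerve RNA: the summed level of 8 Schwann cell genes was 8295 CPM there, against 1208 at the lowest in Achilles tendon. The part of nerve in the muscle values of Achilles 1 was not tested. Without Achilles 1 and patellar 1, a choice made after the data were seen, supraspinatus was above flexor for 28 genes (29.4% of all genes), flexor above Achilles for 24 (23.3%), flexor above patellar for 30 (26.4%), and Achilles above patellar for 17 (4.52%), with Mybpc2 alone the other way (3.57%). The supraspinatus counts were 31 against Achilles (25.7%) and 31 against patellar tendon (28.9%). The mean summed levels then were 0.683% in Achilles and 0.126% in patellar tendon. For most of these genes, this choice by itself raises the Achilles mean, lowers the patellar mean and narrows the spread. Calls made without both libraries are thus no separate check.

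Single libraries also moved these counts by more than 1.5 times. Supraspinatus over flexor was called for 20 genes without patellar 1, for 14 without patellar 3 and for 5 without flexor 3. Flexor over Achilles was called for 25 genes without patellar 1, for 5 without Achilles 3 or flexor 1, for 6 without Achilles 1, for 7 without flexor 4 and for 8 without flexor 2. Flexor over patellar was called for 30 genes without patellar 1, for 9 without patellar 2 or patellar 4 and for 11 without flexor 1. Supraspinatus stayed above Achilles for 28 to 31 genes and above patellar tendon for 30 to 31. The calls that each of the 16 leave-outs kept were 5 of 8 for supraspinatus over flexor (Mybpc2, Des, Myom2, Cryab and Fbxo32), 5 of 15 for flexor over Achilles (Mybpc2, Myoz1, Jph1, Jph2 and Fbxo32) and 9 of 17 for flexor over patellar tendon (Actn2, Des, Xirp1, Mb, Cryab, Klhl41, Jph1, Jph2 and Fbxo32). With the rat number as a block, supraspinatus over flexor was called for 13 genes, flexor over Achilles for 10 of the 15, and Cryab was no longer called between Achilles and patellar tendon.

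**Figure D2:**
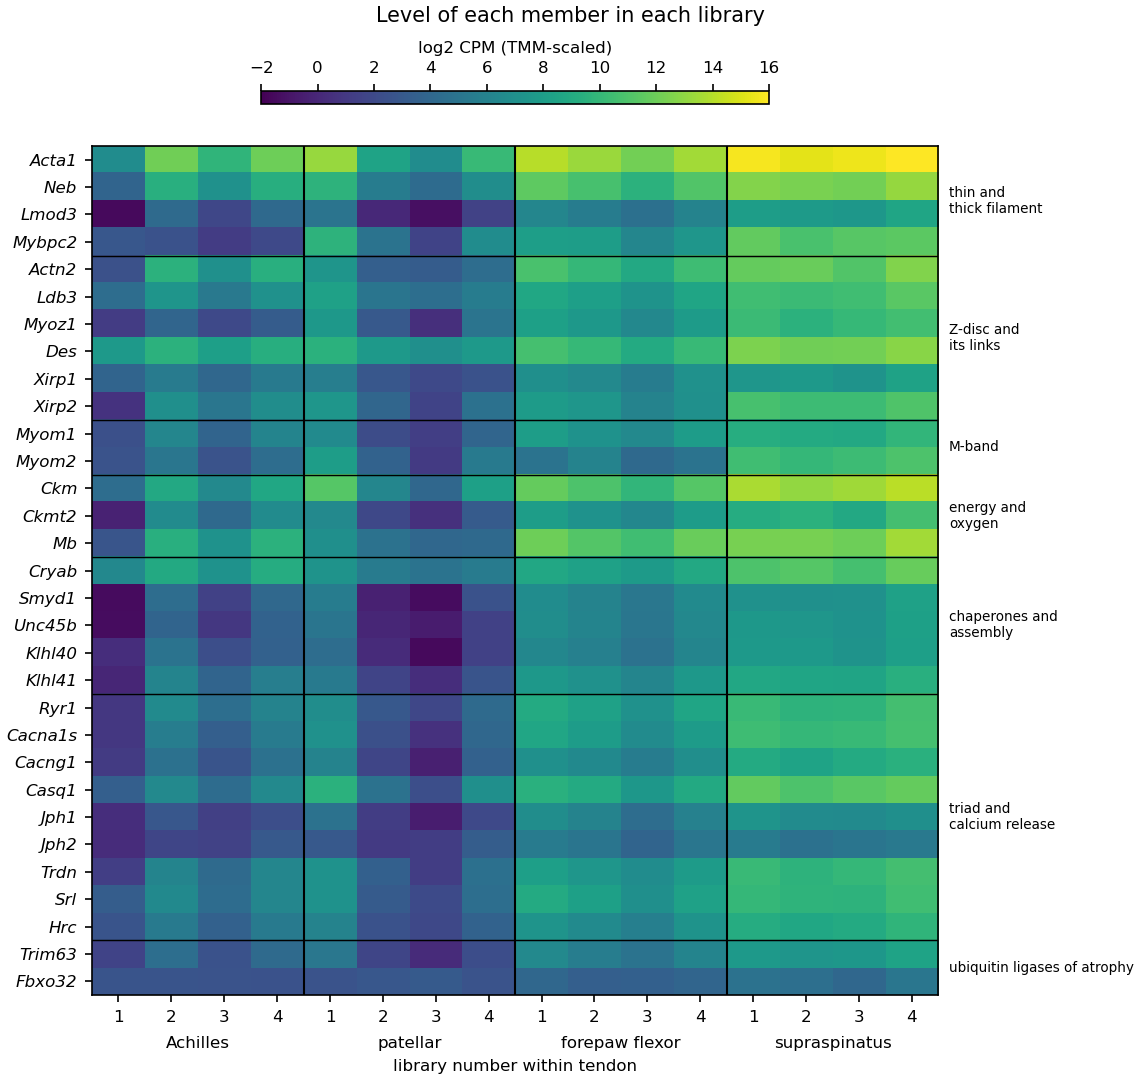
Level of each of the 31 tested genes in each library as log2 CPM after TMM scaling, grouped by role, from dark (low) to yellow (high). Nearly every row is brightest across the 4 supraspinatus columns and darkest in Achilles 1 and patellar 3, and patellar 1 is brighter than the other patellar libraries except for Fbxo32 and Jph2.

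A few promoters are given to show the sequence that lies before these genes, and the part of promoters in the differences between tendons was not tested. RefSeq's table (build GRCr8) held the 250 bases before the start for 27 of the 35 genes. They were matched by symbol, whereas the submitters' processing notes name rn6 for the reads. The 5 below were picked after the values were seen: Acta1 as the member with the most counts, Ldb3 and Myoz1 as Z-disc genes with a factor motif, and Mb and Mybpc2 because their patterns across tendons were the most unlike. They lie at chr19:68784195-68784444, minus strand (Acta1), chr16:9924680-9924929, minus strand (Ldb3), chr15:3693363-3693612, plus strand (Myoz1), chr7:110647743-110647992, minus strand (Mb) and chr1:104154102-104154351, minus strand (Mybpc2). Capitals mark matches to the CArG box, the site of serum response factor (Acta1, Ldb3), to the site of MEF2 factors (Myoz1), to CATTCC, the core of the TEAD site (Acta1, and on the other strand Mybpc2), and to TATAAA, the TATA box (Acta1, Mb).
Acta1: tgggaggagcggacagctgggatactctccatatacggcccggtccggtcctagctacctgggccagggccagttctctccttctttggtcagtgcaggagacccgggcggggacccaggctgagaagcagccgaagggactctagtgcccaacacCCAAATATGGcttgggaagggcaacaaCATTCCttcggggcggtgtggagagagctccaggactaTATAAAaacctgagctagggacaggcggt
Ldb3: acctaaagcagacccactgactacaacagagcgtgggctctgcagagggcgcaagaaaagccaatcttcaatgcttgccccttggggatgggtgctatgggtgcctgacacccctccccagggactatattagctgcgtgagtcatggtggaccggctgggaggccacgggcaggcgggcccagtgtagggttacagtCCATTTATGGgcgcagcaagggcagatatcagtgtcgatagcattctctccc
Myoz1: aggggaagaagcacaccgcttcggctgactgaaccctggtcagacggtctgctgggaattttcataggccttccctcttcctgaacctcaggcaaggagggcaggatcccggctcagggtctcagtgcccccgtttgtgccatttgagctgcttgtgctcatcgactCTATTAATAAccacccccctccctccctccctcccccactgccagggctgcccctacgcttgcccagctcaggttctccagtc
Mb: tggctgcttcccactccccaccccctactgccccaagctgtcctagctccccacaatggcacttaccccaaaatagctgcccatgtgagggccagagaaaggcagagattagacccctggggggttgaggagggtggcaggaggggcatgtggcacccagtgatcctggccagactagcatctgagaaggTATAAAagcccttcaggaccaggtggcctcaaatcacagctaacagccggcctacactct
Mybpc2: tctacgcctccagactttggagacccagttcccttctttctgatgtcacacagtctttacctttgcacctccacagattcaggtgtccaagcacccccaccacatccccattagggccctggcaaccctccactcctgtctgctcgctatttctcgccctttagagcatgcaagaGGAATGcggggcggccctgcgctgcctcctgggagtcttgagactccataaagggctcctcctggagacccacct
Counted back from the gene's start, the Acta1 matches stood at -94 to -85 (CArG box), -67 to -62 (CATTCC) and -29 to -24 (TATAAA). The Ldb3 CArG box stood at -52 to -43, the Myoz1 MEF2 site at -83 to -74, the Mb TATAAA at -60 to -55 and the Mybpc2 CATTCC at -75 to -70. Both strands were searched. A member counted if any of its entries matched (30 entries for 27 genes), whereas all promoters were counted entry by entry, which can raise the member share. A CArG box was found before 2 of 27 genes (7.41%), beside 1.5% of all 33469 promoters, and a MEF2 site before 6 (22.2%), namely Klhl40, Klhl41, Myoz1, Ttn, Xirp1 and Xirp2, beside 2.96%. In Xirp1, 2 MEF2 matches overlapped. CATTCC was found before 4 genes (14.8%, beside 12.1%), TATAAA before 5 (18.5%, beside 12.9%) and the E-box CANNTG, the site of the MyoD family, before 23 (85.2%, beside 65.5%). No motif was common to all, and these matches are a description of letters, not of binding.

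Acta1 (ENSRNOG00000017786), skeletal muscle alpha-actin and the backbone of the thin filament, measured 53984, 39532, 48246 and 82574 CPM (a gene's counts as parts of the TMM-scaled library) in supraspinatus 1 to 4 and 17447, 10097, 4711 and 11889 CPM in flexor 1 to 4. It measured 109, 4400.3, 899 and 4267 CPM in Achilles 1 to 4 and 9522, 340.3, 108 and 1142 CPM in patellar 1 to 4. Supraspinatus stood apart from all other libraries, flexor from Achilles, and patellar 1 reached into the flexor range. The fold was 4.54 ± 1.28 (log2 ± SE, adjusted p = 0.00874, edgeR) for supraspinatus over Achilles and 4.34 ± 1.27 (0.00952) over patellar tendon. Supraspinatus over flexor, at 2.35 ± 1.16, had an adjusted p of 0.111 although the libraries did not overlap, and 0.00869 without Achilles 1 and patellar 1. Near-identical actin genes can share reads in counting, and the cardiac actin gene Actc1 was at 0.0886 to 49 CPM in all libraries.

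Neb, the giant ruler of the thin filament, fell from a supraspinatus mean of 6406 ± 1951 CPM to 1941 ± 945 in flexor, 360.2 ± 332 in Achilles and 247 ± 377 in patellar tendon. Lmod3, a leiomodin that nucleates and lengthens thin filaments, followed the same order, between 186 and 392 CPM in supraspinatus and down to 0.337 CPM in Achilles 1. Flexor was called above patellar tendon for Neb (2.98 ± 1.11, adjusted p = 0.0369), and for neither of these genes was any other pair without supraspinatus called.

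Mybpc2 (ENSRNOG00000019627), the myosin-binding protein C of fast fibres on the thick filament, departed from the common pattern in Achilles tendon. Its level was 3265, 1853, 2517 and 2856 CPM in supraspinatus 1 to 4 and 275, 265, 77.4 and 175 CPM in flexor 1 to 4. It was 7.45, 5.69, 2.28 and 3.88 CPM in Achilles 1 to 4 and 796, 29.1, 3.13 and 105 CPM in patellar 1 to 4. All 4 Achilles libraries were low, Achilles 2 and 4 included, which were the richest Achilles libraries in Acta1 and Neb. The fold of supraspinatus over Achilles was 9.09 ± 1.41 (adjusted p = 0.000108), the largest of the 31, and that of flexor over Achilles was 5.36 ± 1.20 (adjusted p = 0.00206). Achilles lay below patellar tendon with a fold of -5.59 ± 1.21 on the log2 scale (adjusted p = 0.0188 in edgeR), or -3.24 without patellar 1. That call was lost without Achilles 2 (adjusted p = 0.0596), without Achilles 3 (0.054) and with limma-voom (0.191), and it held without Achilles 1 and patellar 1 together (-3.52 ± 0.89, adjusted p = 0.0317).

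As a count ratio within each library, which library scaling does not touch, Mybpc2 to Neb was 0.314 to 0.535 in supraspinatus and 0.0785 to 0.153 in flexor. It was 0.163 to 0.984 in patellar tendon and 0.529, 0.00864, 0.0164 and 0.00619 in Achilles 1 to 4. In the same libraries the ratio of Myh7, the slow myosin heavy chain, to Myh4, a fast one, was 4.24, 3.36 and 6.1 in Achilles 2 to 4 and 0.022 in Achilles 1. It was 0.001 to 0.0043 in flexor, 0.000291 to 0.427 in patellar tendon and 0.0282 to 0.126 in supraspinatus. The 3 libraries with more Myh7 than Myh4 counts were thus the 3 with the lowest Mybpc2 to Neb ratio. These gene pairs were chosen after their values were seen, and the part of fibre type in the levels of Mybpc2 was not tested.

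Z-disc genes anchor and cross-link the thin filaments, and 6 of the 7 measured passed the filter. All 6 were higher in supraspinatus than in either hindlimb tendon, and 3 (Ldb3, Des and Xirp2) were higher than in flexor. Des (ENSRNOG00000019810), desmin, the intermediate filament that ties Z-discs to each other, measured 5632, 4439.7, 4629 and 7208 CPM in supraspinatus 1 to 4 and 1657, 1050.3, 504 and 1147 CPM in flexor 1 to 4. It measured 213, 771, 287 and 616 CPM in Achilles 1 to 4 and 739.8, 202, 128 and 218 CPM in patellar 1 to 4. The 2 forelimb tendons did not overlap, flexor overlapped both hindlimb tendons, and the range of all libraries was far narrower than for Acta1: the highest library held 56.5 times the lowest, against 767 times for Acta1. Supraspinatus exceeded flexor by 2.33 ± 0.55 (adjusted p = 0.00301), and flexor exceeded patellar tendon by 1.76 ± 0.54 (adjusted p = 0.0143). Smooth muscle cells also make desmin, and the summed level of 9 smooth muscle and pericyte genes was 519 to 1070.1 CPM in supraspinatus and 1280 to 2768 CPM in Achilles tendon. It was 350 to 2287 CPM in flexor and 750 to 1681 CPM in patellar tendon.

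Actn2, the alpha-actinin that cross-links actin in all fibre types, and Myoz1, a calsarcin of fast fibres that binds it, leaned opposite ways in the hindlimb. Achilles minus patellar tendon was 2.85 ± 1.14 for Actn2 (adjusted p = 0.156, edgeR) and -2.96 ± 1.06 for Myoz1 (adjusted p = 0.116), so neither was called. They are singled out after their values were seen. Actn2 measured 5.39, 740.2, 129.8 and 640.4 CPM in Achilles 1 to 4 and 168, 10.7, 9.45 and 21.5 CPM in patellar 1 to 4. Myoz1 measured 2.27, 14.9, 3.9 and 9.37 CPM in Achilles 1 to 4 and 197, 8.05, 1.36 and 30.6 CPM in patellar 1 to 4. Achilles 2 to 4 thus had much Actn2 and little Myoz1, with count ratios of Actn2 to Myoz1 of 49.8, 33.2 and 68.3, against 2.38 in Achilles 1, 2.08 to 5.17 in supraspinatus, 5.27 to 6.09 in flexor and 0.703 to 6.92 in patellar tendon. Flexor exceeded Achilles tendon in Myoz1 (4.74 ± 1.15, adjusted p = 0.00355) but was not called in Actn2 (1.62 ± 1.09, adjusted p = 0.238). Against patellar tendon, Actn2 was called higher in flexor (4.47 ± 1.23, adjusted p = 0.00721) and Myoz1 was not called (1.78 ± 1.01, adjusted p = 0.156). The difference between the folds of these genes was not tested.

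Ldb3 (cypher), a Z-disc scaffold with PDZ and LIM domains, ran from 1685 ± 654 CPM in supraspinatus to 311 ± 119.9 in flexor, 91.5 ± 72.4 in Achilles and 106 ± 145 in patellar tendon. Xirp1 and Xirp2 encode Xin-repeat proteins that bind actin and are known from the ends of fibres. Xirp2 had 1283 to 2123 CPM in supraspinatus and 65.8 to 233 CPM in flexor, a fold of 3.41 ± 1.14 (adjusted p = 0.023). Xirp1 had 150.1 to 339 CPM in supraspinatus and 46.2 to 138 CPM in flexor, a fold of 1.13 ± 0.70 (adjusted p = 0.202). The difference between these 2 folds was not tested. The ends of fibres carry their own collagen, type XXII, and its gene Col22a1 was at 158 to 203 CPM in supraspinatus, 13.6 to 59.8 in Achilles, 8.26 to 20 in flexor and 3.42 to 25.6 in patellar tendon. It is 1 of 4 listed genes of the junction of muscle and tendon. Of these 4, 3 were higher in supraspinatus than in Achilles tendon (24.7% of all genes), 2 than in patellar tendon (27.5%) and 3 than in flexor (24.3%), with 0 lower. In flexor, 2 were lower than in Achilles tendon (23.5%) and 1 higher (24.1%). Against patellar tendon, 1 was lower in flexor (24.7%) and 0 higher.

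The M-band genes Myom1 and Myom2 encode the myomesins that cross-link thick filaments, and Myom2 is best known from fast fibres. Myom2 (ENSRNOG00000011754) measured 1452, 1039, 1326 and 2033 CPM in supraspinatus 1 to 4 and 29.2, 66.5, 17.5 and 28.4 CPM in flexor 1 to 4. It measured 6.22, 33.6, 6.09 and 21.4 CPM in Achilles 1 to 4 and 265, 12.6, 2.1 and 40.8 CPM in patellar 1 to 4. Flexor 1, 3 and 4 held less Myom2 than Achilles 2, patellar 1 and patellar 4, and flexor 2 held less than patellar 1 alone among the hindlimb libraries. Supraspinatus exceeded flexor by 5.37 ± 1.17 (adjusted p = 0.00167), the largest fold of that pair, whereas Myom1 differed by 1.75 ± 0.98 (adjusted p = 0.154). Flexor against Achilles (1.07 ± 0.99, adjusted p = 0.393) and flexor against patellar tendon (-1.18 ± 0.99, adjusted p = 0.336) were not called for Myom2, and the latter was 0.92 without Achilles 1 and patellar 1. Within libraries, Myom2 to Myom1 was 2.06 to 2.8 in supraspinatus and 0.113 to 0.454 in flexor, with 0.303 to 1.18 in Achilles and 0.833 to 2.76 in patellar tendon. Flexor 1, 3 and 4 lay below all other libraries in this ratio, and flexor 2 lay just above Achilles 2 to 4.

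**Figure D3:**
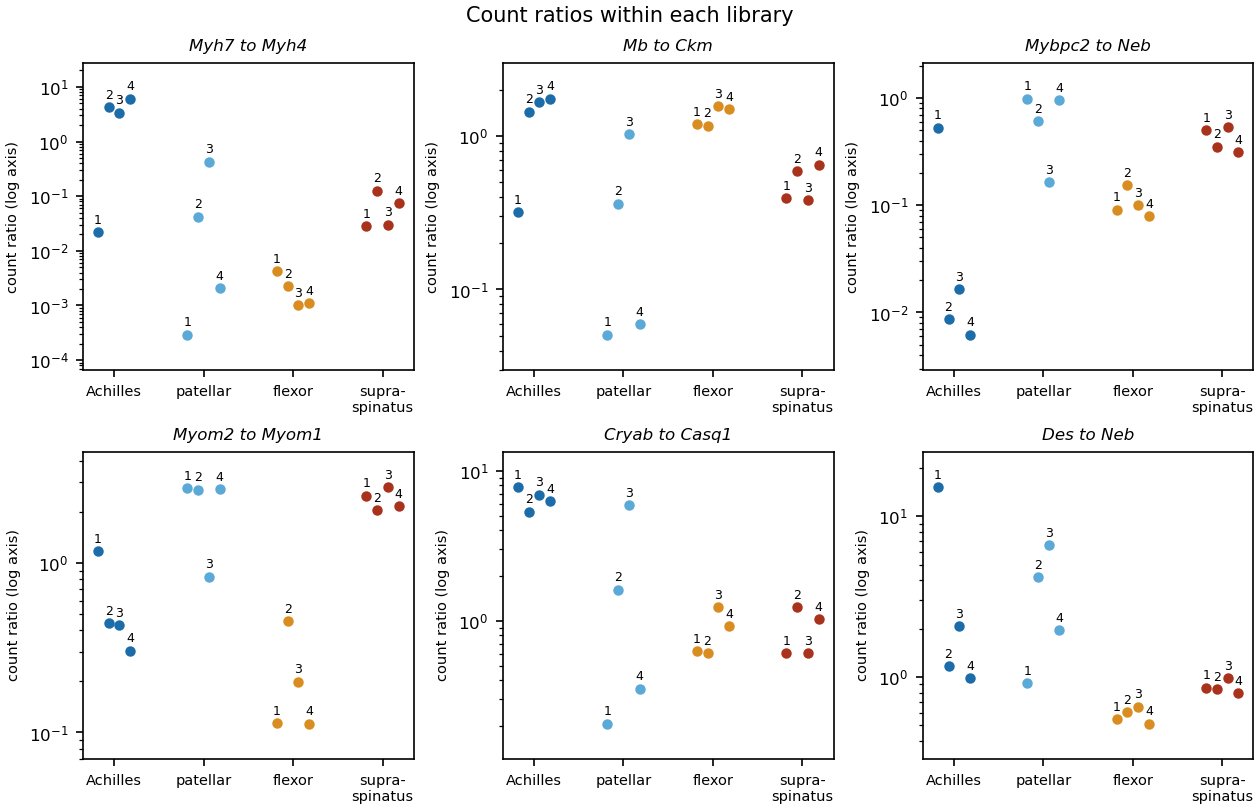
Ratio of the counts of 2 genes within each library, on log axes, for 6 pairs chosen after the values were seen. Points are numbered libraries: Achilles 2 to 4 have the highest Myh7 to Myh4 and the lowest Mybpc2 to Neb ratios, the flexor libraries lie at 0.113 to 0.454 in Myom2 to Myom1, overlapping Achilles 2 to 4, and Achilles 1 has a Des to Neb ratio of 15.1.

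Of the energy and oxygen genes, Ckm, the cytosolic muscle creatine kinase that regenerates ATP, had the most counts. Ckm (ENSRNOG00000016837) measured 13245, 8838, 11052 and 17930.0 CPM in supraspinatus 1 to 4 and 3452, 1969, 903 and 2499 CPM in flexor 1 to 4. It measured 21.5, 467, 87.8 and 428 CPM in Achilles 1 to 4 and 2454, 77.5, 16.1 and 302 CPM in patellar 1 to 4. The 2 forelimb tendons did not overlap, and both lay above all Achilles libraries, with patellar 1 inside the flexor range. Supraspinatus exceeded Achilles tendon by 5.67 ± 1.35 (adjusted p = 0.00297) and patellar tendon by 4.16 ± 1.26 (adjusted p = 0.0115), and flexor exceeded Achilles tendon by 3.13 ± 1.20 (adjusted p = 0.0437). This last call held in 5 of 16 leave-outs and not with the rat number as a block (adjusted p = 0.0637). Ckmt2, the creatine kinase of muscle mitochondria, was called only against supraspinatus (3.89 ± 1.31 over Achilles and 5.01 ± 1.39 over patellar tendon).

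Mb (ENSRNOG00000004583), myoglobin, the oxygen store that is rich in oxidative fibres, is named for its values. It measured 5184, 5185, 4229 and 11630.0 CPM in supraspinatus 1 to 4 and 4115, 2298, 1403 and 3718 CPM in flexor 1 to 4. It measured 6.87, 670.4, 145 and 747 CPM in Achilles 1 to 4 and 124, 28, 16.5 and 17.9 CPM in patellar 1 to 4. All flexor libraries lay above all patellar libraries, patellar 1 included, with a fold of 5.95 ± 1.16 (adjusted p = 0.000671). Supraspinatus over flexor was 1.19 ± 0.95 (adjusted p = 0.322), and Achilles over patellar tendon was 3.07 ± 1.01 (adjusted p = 0.0919), which became 4.64 ± 0.65 (adjusted p = 0.00198) without Achilles 1 and patellar 1. Those were the lowest Achilles and the highest patellar library for Mb, so this rise follows from the choice. The count ratio of Mb to Ckm was 1.17 to 1.55 in flexor and 0.383 to 0.649 in supraspinatus. It was 0.319, 1.44, 1.65 and 1.75 in Achilles 1 to 4 and 0.0507, 0.362, 1.03 and 0.0592 in patellar 1 to 4.

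The chaperone group folds and assembles sarcomere proteins. Cryab (ENSRNOG00000010524), alphaB-crystallin, a small heat shock protein that protects desmin and titin, measured 1964, 2449, 1635 and 3598 CPM in supraspinatus 1 to 4 and 438, 308, 228 and 461 CPM in flexor 1 to 4. It measured 84.7, 482, 142 and 561 CPM in Achilles 1 to 4 and 151, 44.3, 29.2 and 44.3 CPM in patellar 1 to 4. Achilles 2 and 4 exceeded every flexor library, so that flexor and Achilles tendon overlapped (0.18 ± 0.58, adjusted p = 0.824), while all flexor libraries lay above all patellar ones (2.42 ± 0.61, adjusted p = 0.00438). Cryab was higher in Achilles than in patellar tendon by 2.24 ± 0.61 (adjusted p = 0.0469), a value close to the threshold, with an adjusted p of 0.0548 with the rat number as a block. The adjusted p was 0.0511 to 0.126 when any one of the flexor libraries, Achilles 2 or 4, patellar 2, 3 or 4, or supraspinatus 1, 2 or 3 was left out, and 0.00207 (3.33 ± 0.48) without Achilles 1 and patellar 1. Those were the lowest Achilles and the highest patellar library for Cryab, so the larger fold follows from the choice. The count ratio of Cryab to Casq1, a calcium store of mainly fast fibres, was 5.34 to 7.74 in Achilles tendon, above the 0.606 to 1.23 of flexor and the 0.607 to 1.24 of supraspinatus in every library, and 0.207 to 5.91 in patellar tendon.

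Smyd1 and Unc45b work on the folding of myosin, and Klhl40 and Klhl41 stabilize thin filament proteins. All 4 were higher in supraspinatus than in both hindlimb tendons, by 3.73 to 5.14. Flexor was called above patellar tendon for Unc45b (3.05 ± 1.16), Klhl40 (3.22 ± 1.04) and Klhl41 (3.52 ± 1.09), and above Achilles tendon for Unc45b (3.38 ± 1.17). None was called between supraspinatus and flexor, where the folds were 1.22 to 1.85.

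Of the 9 triad genes, 8 were called higher in flexor than in Achilles tendon, beside 24.1% of all genes. Only Jph1 and Jph2 kept this call in every leave-out, with 2 triad genes called without Achilles 1, Achilles 3 or flexor 1, and 3 without flexor 2 or flexor 4. With the rat number as a block 5 were called, Casq1, Jph1, Jph2, Srl and Hrc. Casq1 (ENSRNOG00000006930), calsequestrin 1, which holds calcium inside the sarcoplasmic reticulum, measured 3237, 1984, 2682 and 3515 CPM in supraspinatus 1 to 4 and 697, 508, 185 and 498 CPM in flexor 1 to 4. It measured 10.9, 90.3, 20.6 and 89 CPM in Achilles 1 to 4 and 729.7, 27.5, 4.94 and 125 CPM in patellar 1 to 4. Flexor lay above Achilles tendon in every library (3.16 ± 1.11, adjusted p = 0.0288) and overlapped patellar tendon through patellar 1 (1.09 ± 1.03, adjusted p = 0.396). The channel genes followed: Ryr1, the calcium release channel, fell from 1080.1 ± 349.9 CPM in supraspinatus to 338 ± 158 in flexor, 46.4 ± 42.3 in Achilles and 36.5 ± 53.2 in patellar tendon. Cacna1s and Cacng1, the pore and gamma subunits of the voltage sensor, exceeded Achilles tendon in flexor by 3.19 ± 1.16 and 2.65 ± 1.02.

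Srl (sarcalumenin) and Hrc, calcium-binding proteins of the reticulum, were also higher in flexor than in Achilles tendon, by 2.62 ± 0.95 and 2.16 ± 0.81. Trdn, triadin, which links calsequestrin to the release channel, was not called (2.27 ± 1.02, adjusted p = 0.0809). Hrc was the 1 triad gene called between supraspinatus and flexor (2.37 ± 0.81, adjusted p = 0.0264). Junctophilins hold the tubule and reticulum membranes together. Jph2 (ENSRNOG00000008170), also the junctophilin of the heart, measured 44.7, 26.4, 31.7 and 38 CPM in supraspinatus 1 to 4 and 45.3, 31.6, 13.6 and 33.3 CPM in flexor 1 to 4. It measured 1.23, 3.33, 2.93 and 7.97 CPM in Achilles 1 to 4 and 8.28, 2.11, 2.38 and 9.81 CPM in patellar 1 to 4. The 2 forelimb tendons overlapped fully (0.18 ± 0.55, adjusted p = 0.809), the smallest difference of the 31 genes in that pair, and turned to -0.18 on plain library totals. Both forelimb tendons lay above both hindlimb tendons, flexor by 3.0 ± 0.60 over Achilles (adjusted p = 0.000904) and by 2.45 ± 0.58 over patellar tendon (adjusted p = 0.00289).

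The ubiquitin ligases Trim63 (MuRF1) and Fbxo32 (atrogin-1) mark muscle proteins for breakdown and are both known to rise in wasting muscle, but their levels differed in kind here. Trim63 (ENSRNOG00000016543) followed the sarcomere genes, at 217, 171, 187 and 341 CPM in supraspinatus 1 to 4 and 90.1, 49.1, 29.4 and 69.5 CPM in flexor 1 to 4. It was at 3.06, 23.1, 5.88 and 18.4 CPM in Achilles 1 to 4 and 35.9, 3.43, 1.19 and 4.69 CPM in patellar 1 to 4. Fbxo32 (ENSRNOG00000006738) was at 26.9, 24.2, 15.8 and 34.2 CPM in supraspinatus 1 to 4 and 15.8, 11.1, 11.4 and 14.5 CPM in flexor 1 to 4. It was at 6.5, 6.52, 5.96 and 5.74 CPM in Achilles 1 to 4 and 6.03, 7.22, 8.46 and 6.22 CPM in patellar 1 to 4. The hindlimb libraries of Fbxo32 were nearly level, Achilles 1 and patellar 1 included, and its highest library held 5.96 times the lowest, the narrowest range of the 31. Its small folds were the most precise: 2.03 ± 0.20 for supraspinatus over Achilles (adjusted p = 4.11e-06) and 1.09 ± 0.20 for flexor over Achilles (adjusted p = 0.000434).

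**Figure D4:**
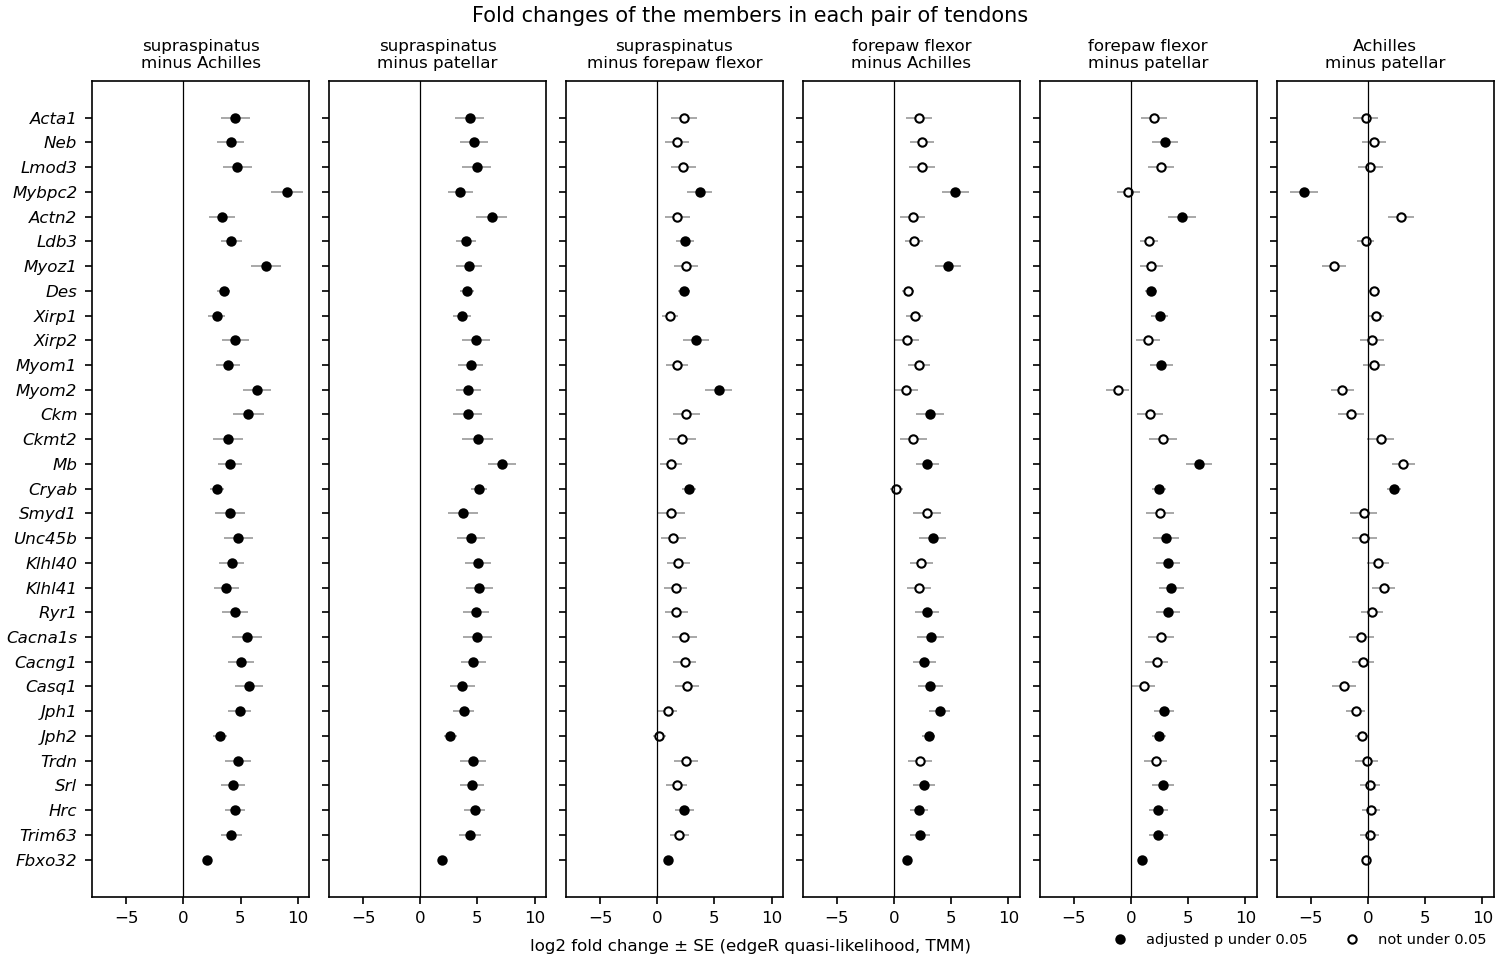
Log2 fold change with its SE (edgeR, TMM) of each of the 31 genes in each of the 6 pairs of tendons, filled where the adjusted p was under 0.05. All points are filled in the 2 panels of supraspinatus against the hindlimb tendons, and 2, Mybpc2 at -5.59 and Cryab at 2.24, in Achilles against patellar tendon.

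Scaling each library to muscle itself asked which of these genes moved by more or less than other muscle genes. For this, libraries were scaled to the mean log2 count of 16 other skeletal muscle genes, none of them a member, which hold parts of the sarcomere and triad such as Nrap and Stac3 and also enzymes such as Pygm and Ampd1. Those 16 were themselves higher in supraspinatus than in Achilles and patellar tendon, all 16 in each (beside 24.7% and 27.5% of all genes), and higher than in flexor for 2 of 16 (24.3%). On this scale the median fold of the 31 genes was within 0.23 of 0 in every pair, 0.01 for supraspinatus against Achilles tendon and 0.18 for supraspinatus against flexor. With edgeR, 2 of 31 differed among the tendons, Fbxo32 (adjusted p = 6.55e-05) and Myom2 (0.0362), while 97.7% of all genes did. That model takes its estimate of spread from all of those genes. With so many genes called, the adjustment over all genes barely raised the p-values. It thus guarded the 31 genes little against chance calls on this scale. When each gene's own variance was used, added after the data were seen, 20 of 31 differed, beside 97.1% of all genes, and without Achilles 1 and patellar 1 the counts were 7 with edgeR and 25 with each gene's own variance.

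In edgeR on this scale, Fbxo32 was lower in supraspinatus than in Achilles (-4.53 ± 1.30, where 97.5% of all genes were) and patellar tendon (-5.09 ± 1.33, beside 97%), and lower in flexor than in Achilles (-3.33 ± 1.23, beside 89.5%) and patellar tendon (-3.88 ± 1.26, beside 92.2%). Its level moved less than muscle as a whole. Xirp1 was lower in supraspinatus than in Achilles tendon (-2.77 ± 1.19), as was Jph2 against patellar tendon (-3.30 ± 1.24), and Cryab (-2.88 ± 1.21) and Des (-2.43 ± 1.21) were lower in flexor than in Achilles tendon. Myom2 was lower in flexor than in patellar tendon (-3.32 ± 1.22). Mybpc2 had an adjusted p of 0.0535 and Jph2 of 0.0566 among the tendons, and limma-voom on the same scale called Mybpc2 (0.000503), Fbxo32 (0.00234) and Myom2 (0.00847), beside 96.8% of all genes. For Fbxo32, flexor against Achilles tendon was not called with the gene's own variance (-2.03 ± 1.18, adjusted p = 0.132) or with the rat number as a block (0.0707), nor was Des with that block (0.117), which held in 5 of 16 leave-outs. The Xirp1 call was also lost with that block (0.0664) and held in 13 of 16 leave-outs. The Cryab call held with that block (0.0391) and in 12 of 16 leave-outs.

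**Figure D5:**
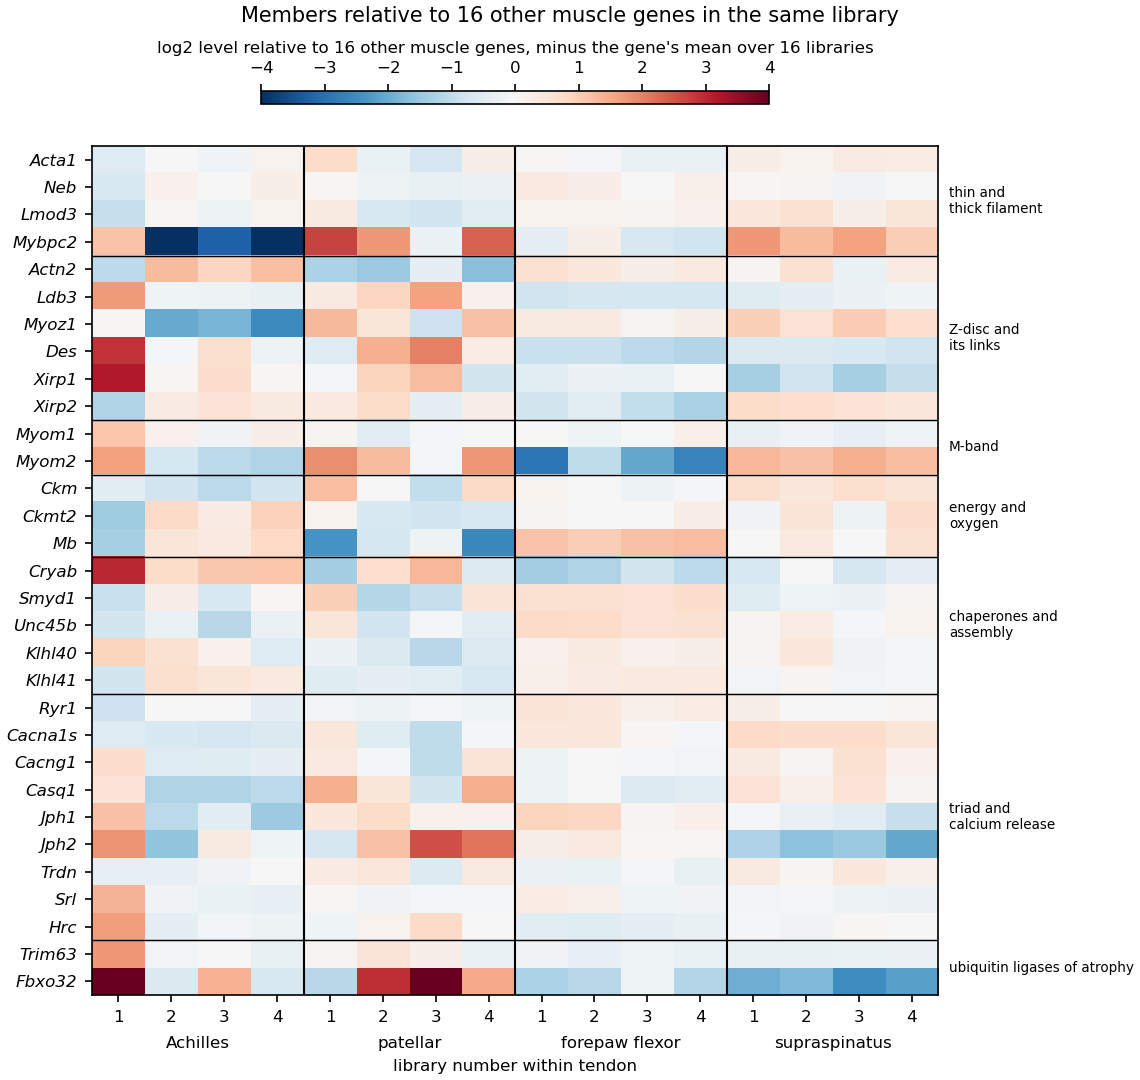
Log2 level of each gene relative to 16 other muscle genes in the same library, after subtracting the gene's mean over the 16 libraries, from blue (lower) to red (higher). Fbxo32, Des, Xirp1 and Cryab are red in Achilles 1, Mybpc2 and Myoz1 are blue in Achilles 2 to 4, Myom2 is blue in the 4 flexor libraries, and Mb is blue in patellar 1 and 4.

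Some genes departed widely in the libraries with the least muscle. Relative to its mean over libraries, Fbxo32 stood at 4.19 in Achilles 1, 2.95 in patellar 2 and 4.43 in patellar 3, against -2.47 to -1.76 in supraspinatus. In Achilles 1, Xirp1 stood at 3.19, Cryab at 3.01 and Des at 2.90, while in Achilles 2 and 4 the 3 genes were between -0.21 and 1.10. Wide departures were not confined to such libraries: Mybpc2 stood at -4.02 in Achilles 2 and -4.42 in Achilles 4. The summed members were 0.0566, 0.0957 and 0.0403% of the library in Achilles 1, patellar 2 and patellar 3, the least of all 16, and the part of other cell types in these departures was not tested. Genes such as Trdn (-0.53 to 0.46) and Neb (-0.60 to 0.40) stayed close to the other muscle genes in all 16 libraries.

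Genes of fast and slow fibres were measured in the same libraries. Of 9 measured genes of fast fibres, 9 were higher in supraspinatus than in Achilles (24.7% of all genes) and in patellar tendon (27.5%), 9 were higher in flexor than in Achilles tendon (24.1%), and 2 were higher in patellar than in Achilles tendon (2.06%). Of 12 genes of slow fibres, 11 were higher in supraspinatus than in patellar tendon (27.5% of all genes), 9 were higher in Achilles than in patellar tendon (3.1%), and 5 were lower in flexor than in Achilles tendon (23.5%), with 1 higher (24.1%). Between supraspinatus and Achilles tendon, 1 of these 12 was higher in supraspinatus (24.7%) and 1 was lower (25.4%). Summed slow fibre levels were 361 to 5240.2 CPM in Achilles tendon and 315 to 363 CPM in all 4 patellar libraries, patellar 1 included. Summed fast fibre levels were 196 to 1617 CPM in Achilles tendon and 132 to 18611 CPM in patellar tendon. The 31 genes thus came from libraries whose fast and slow genes differed in proportion, and the members that are known as fast or oxidative forms (Mybpc2, Myoz1, Casq1, Myom2 and Mb) varied in their ratios to other members. Ratios between other members varied as well. Over the 16 libraries, Des to Neb ran from 0.514 to 15.1, Fbxo32 to Trim63 from 0.0844 to 7.09 and Jph2 to Jph1 from 0.254 to 3.44. Klhl40 to Klhl41 ran from 0.228 to 1.32 and Unc45b to Smyd1 from 0.473 to 1.71. The part of fibre type in these ratios was not tested.

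Other cells in the samples were measured beside these genes. The 8 tendon fibroblast genes summed to 28230.0 to 135240 CPM over the 16 libraries, so that tendon RNA was present in all. Satellite cell genes summed to 218 to 228 CPM in supraspinatus and 10.8 to 73.5 CPM in the other tendons, with Pax7 at 2.65 to 5.74 CPM in supraspinatus and 0 to 1.88 CPM elsewhere. Cardiac genes summed to at most 103 CPM. All 5 adipocyte genes were lower in supraspinatus than in Achilles (25.4% of all genes), patellar (28.8%) and flexor tendon (23.4%), at 32.3 to 96.6 CPM summed against 2121 to 7870 CPM in Achilles tendon. Schwann cell genes were lower in supraspinatus than in flexor for 6 of 8 (23.4% of all genes). These lists differed between tendons too, and their part in the results was not tested.

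In the authors' deposited table of their own edgeR comparisons, 31 of the 32 genes are listed, all but Myot, among 12588 genes. At an FDR under 0.05, the authors' deposited table has 31 higher in supraspinatus than in Achilles tendon (54.6% of all its genes differ in either direction) and 31 than in patellar tendon (64.3%). In the authors' deposited table, supraspinatus was higher than flexor for 13 (58.7%), with 7 higher in flexor than in Achilles tendon (50.7%), Jph1 and Jph2 of the triad genes among them, and 20 higher in flexor than in patellar tendon (57.7%). Between Achilles and patellar tendon, the authors' deposited table calls 3 genes (6.33%), Mybpc2, Mb and Cryab.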

How the data were processed

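Counts per Ensembl gene were deposited by the authors as whole numbers, 1 column per library, and a second deposited table by the authors holds the log2 fold change and the p-value and FDR of each pair of tendons. The submitters' processing notes list HISAT2, FastQC, edgeR and the rn6 build; counting tool, annotation and strand setting are not given, so overlapping, antisense and near-identical genes (actins, myosins) are uncertain. Libraries held 63397591 to 102491699 counts, so 3 counts, the most that a count of 0 allows, correspond to 0.0293 to 0.0473 CPM, which covers counting error only.

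Each library's title gave its tendon. Genes passed filterByExpr (minimum count 10, minimum total 15), which left 16948, and edgeR 4.0.16 (R 4.3.3) fitted a quasi-likelihood model with TMM and 1 coefficient per tendon, 12 residual degrees of freedom and Benjamini-Hochberg adjustment per comparison at 0.05. SE is the fold over the square root of F. The same model was fitted with libraries scaled to 16 other muscle genes (log2 of count plus 0.5). Summed levels were compared by exact permutation tests.

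The members and all lists were chosen with earlier results of these data known. Given in every library are, per role class, the member with the highest mean, members called in a pair with calls in both directions, the largest and smallest supraspinatus to Achilles fold, and the 5 smallest adjusted p relative to muscle genes; Actn2, Myoz1 and Mb were added after their values were seen. Of 94 further list symbols 90 were matched. Alternatives were median-of-ratios factors, library totals, DESeq2 1.42.0, limma-voom (limma 3.58.1), no filter, 1 CPM in 8 libraries, scaling to fibre genes, a replicate block and leaving out each library.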

Additional observations from a re-analysis of the deposited data

Results flagged for a closer look

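Patellar 1 stood far above the other 3 patellar libraries, by a gap test within groups of 4. Chance alone gives about 1 in 20 groups only if values are normally distributed. The gap was taken on unlogged levels, where a high library stands out more readily than a low one, and was not taken on a log scale. Of 44 groups of 4 libraries tested (the summed level and the 10 genes named by rule, in each tendon), 9 had such a gap, all of them patellar 1 on the high side. The summed level of the 32 genes was 1.76% of the TMM-scaled library total there and 0.0403 to 0.241% in patellar 2 to 4. Acta1 was at 9522 CPM against 108 to 1142, Ckm at 2454 CPM against 16.1 to 302, Mybpc2 at 796 CPM against 3.13 to 105, and Casq1 at 729.7 CPM against 4.94 to 125. Des was at 739.8 CPM against 128 to 218, Myom2 at 265 CPM against 2.1 to 40.8, Cryab at 151 CPM against 29.2 to 44.3, and Trim63 at 35.9 CPM against 1.19 to 4.69. Over all 31 genes the same gap was found in the patellar group for 28, in supraspinatus for 3, and in no gene in the flexor and Achilles groups. On unlogged levels, the lack of a gap in the Achilles group does not mean that Achilles 1 was level with the others. These genes share their libraries, so these gaps are not independent of each other.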

How the results depend on the processing

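All 31 genes differed among the tendons under every alternative run, and supraspinatus stayed above Achilles for 28 to 31 genes and above patellar tendon for 30 to 31. The counts for the other pairs depended on the test and on single libraries, for which the cause was not tested. Genes called higher in supraspinatus than in flexor were 15 with DESeq2, 13 with limma-voom and 28 without Achilles 1 and patellar 1 (left out after the data were seen), and 5 to 20 with each library left out, against 8. For flexor over Achilles they were 23, 25 and 24, and 5 to 25, against 15. For flexor over patellar they were 27 with limma-voom and 30 without both libraries, and 9 to 30, against 17. Achilles over patellar tendon had 0 on library totals, 0 without a filter, 3 with DESeq2, 17 without both libraries, and 0 to 4, against 1, and the reverse had 2 with DESeq2, 0 with limma-voom, and 0 to 1, against 1. Relative to other muscle genes 2 differed, 1 to 6 with each library left out, 7 without both libraries, 20 with each gene's own variance and 25 with both changes. Without Acta1, Ckm and Mb the summed level was 3.87% in supraspinatus and 0.828% in flexor.

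Whether the rat numbers pair the samples is not settled, since the titles use the same 4 numbers in every tendon without saying that they are the same rats. Deviations of same-numbered libraries correlated at -0.21 to 0.37, over 0.1 in 9 of 24 pairs, and in 19 of 48 comparisons the own number correlated best. Libraries of different tendons with different numbers correlated at -0.314 to 0.283. With a replicate block 13 genes were called above flexor in supraspinatus and 0 above patellar in Achilles tendon, and Acta1 (Achilles minus patellar) was 0.93 and Mybpc2 (flexor minus patellar) 0.83.

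Folds that changed sign were not called in the main fit. With the changed sign, Mybpc2 in flexor minus patellar was called by edgeR without patellar 1 (2.10, adjusted p = 0.0435). For Achilles minus patellar these were Acta1 (-0.20; 0.61 with limma-voom, 2.60 without both libraries, -0.65 to 2.20 with each left out), Ckm (-1.50; 1.32, -1.98 to 0.94), Casq1 (-2.07; 0.35, -2.47 to 0.016), Myom2 (-2.25; 0.15), Jph2 (-0.55; 0.0016) and Trim63 (0.16; -0.30 to 2.02). For flexor minus patellar these were Mybpc2 (-0.24; 1.74 with limma-voom, 2.09, -0.66 to 2.10) and Myom2 (-1.18; 0.39 with limma-voom, 0.92, -1.69 to 0.92). Cryab in flexor minus Achilles was 0.18 (-0.17, -0.14 to 0.60), and Jph2 in supraspinatus minus flexor was 0.18 (-0.18 on library totals, -0.014 to 0.48).

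Limits are few libraries per tendon and no record of the animals. With 4 libraries each and a wide spread within Achilles and patellar tendon, a count of calls in a pair of these tendons moved with single libraries. The 31 genes had at least 26 counts in every library, and Myot, at 0 to 4, was not tested.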
